A study of Rattus norvegicus with 2 samples.

Results

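The genes described here are 45 transcripts of myeloid cells and of leukocytes in general, read in pricked and unpricked rat thigh muscle. They were chosen by name, with earlier results of these data known, from surface receptors, signalling proteins, and the cytoskeletal and oxidase proteins of phagocytes. They were matched by gene symbol to probe sets that carry a single symbol. Of the 45 genes, 42 had such a probe set, and 41 gave a signal above the floor described below in at least 1 limb, out of 9956 genes measured in all. Slc11a1, Msr1 and Spi1 had no probe set under their own symbol and were not analysed here. Cd52 lay below the floor in both limbs, at 0.89 in the stimulated and 5.29 in the control limb.

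The stimulated group was adductor muscle of the left hindlimb of male Lewis rats, an inbred strain, with a body weight of 275 g. It had received 100 pricks from a steel needle 0.14 mm wide inside a square of 10 mm by 10 mm, and it was taken 24 hours later. The control group was unpricked adductor muscle from the right side, from animals of the same strain, sex and weight. With 1 array in each group there is no replicate and no test, and every difference is one between these 2 samples. How many rats were used is not given in the labels, so the control may be the opposite limb of the same pricked animal and not of an untouched one.

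After injury, leukocytes enter muscle from the blood, and phagocytes among them take up debris and release factors that act on muscle precursor cells. Their surface receptors sense microbial and cell debris, antibody complexes, complement fragments and chemokines. Many of these receptors carry no signalling tail and pair with the adaptors Tyrobp or Fcer1g, whose tyrosine motifs (ITAMs) are phosphorylated by Src-family kinases and then bind Syk. Signals from Syk reach the actin cytoskeleton and the phagocyte NADPH oxidase, an enzyme that makes superoxide. Several of the genes, such as Ptprc, Cd53, Coro1a and Rac2, are expressed across blood cell lineages and do not tell myeloid cells from lymphocytes.

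Values are MAS5 signals, the array maker's linear summary of a probe set, scaled by the authors. Signals below 19.8, the median of all non-control signals, were raised to that floor before a ratio was taken, and a fold with 1 limb below the floor is a lower bound, written "at least". Probe sets that read the same transcript gave an SD of 0.31 for the log2 ratio of a single probe set (2174 genes), and it leaves out variation between limbs and animals. It was 0.36 in the dimmest 725 of those genes and 0.25 in the brightest 725. Skeletal muscle markers were bright in both limbs, with the actin gene Acta1 at 12095 in the stimulated and 16712 in the control limb. The Gapdh control had 3'-to-5' ratios of 1.12 (stimulated) and 1.08 (control), and the beta-actin control had 2.43 (stimulated) and 2.26 (control). All 18 hybridisation spike-in probe sets were lower in the stimulated limb, with a median log2 ratio of -0.38, and scaling to them moved the median gene from 0.019 to 0.39. Folds and directions below therefore hold relative to the median gene.

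Most of the leukocyte genes gave more signal in the pricked limb. Of the 41 measured genes, 37 had a log2 ratio above 0, where 52.3% of all measured genes did. In all, 11 of the 41 (26.8%) were at least 2-fold higher, against 1.43% of all measured genes, and 0 were at least 2-fold lower, against 1.43%. At 1.5-fold, 22 were higher, against 6.59% of all genes, and 0 were lower, against 6.94%. A log2 ratio more than 1 probe set SD above 0 was seen for 31 of the 41, against 19.5% of all genes, and 2 of the 41 were more than 1 SD below 0, against 18% of all genes. The median log2 ratio was 0.64, with quartiles of 0.32 and 1.02, while that of all measured genes was 0.019. Because the genes were chosen with earlier results of these data known, these shares and medians are descriptive and no independent test. In whole muscle, more cells of a type and more RNA per cell cannot be told apart.

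**Figure D1:**
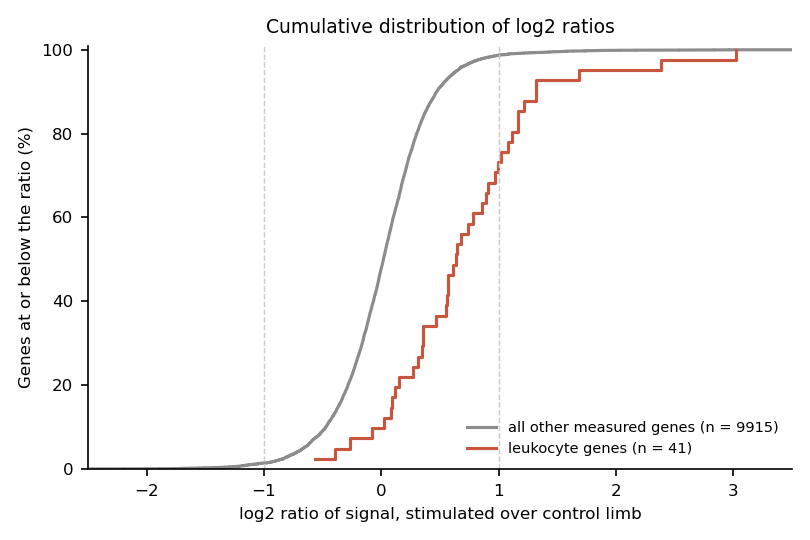
Cumulative share of genes (y axis, percent) at or below a given log2 ratio of stimulated over control signal (x axis), for the 41 measured leukocyte genes and the 9915 other measured genes, with dashed lines at 2-fold. The leukocyte curve lies to the right of the other genes over nearly its whole length, with a median of 0.64 against 0.018.

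The 11 genes at least 2-fold higher were Lilrb4, Clec7a, Tyrobp, Cd53, Cd37, Ptprc, Rac2, Syk, Cyba, Cd68 and Ccr1. Ccr1 lay just above that threshold at 2.03-fold, and Fgr (1.99-fold) and Lcp1 (1.96-fold) lay just below it. Each of the 4 role groups had a positive median. It was 0.57 over 15 receptor genes, 0.84 over 8 genes of surface, integrin and phagosome proteins, 0.64 over 9 signalling genes and 0.68 over 9 cytoskeletal and oxidase genes. The difference between role groups was not tested. With scaling to the spike-ins, 21 of the 41 genes were at least 2-fold higher, against 5.36% of all genes. Relative to the median gene of that scaling, 11 were, a count that a constant factor on 1 array cannot change apart from the floor. With the floor at the 75th percentile of all signals, 28 genes were measured and 5 were at least 2-fold higher, against 0.894% of all genes, and 0 lower, against 0.842%. With the floor at the 25th percentile, 11 of 41 were higher and 0 lower, against 3.71% and 4.67% of all genes. Without a floor, 11 of 42 were higher and 1 lower, against 7.94% and 9% of all genes.

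**Figure D2:**
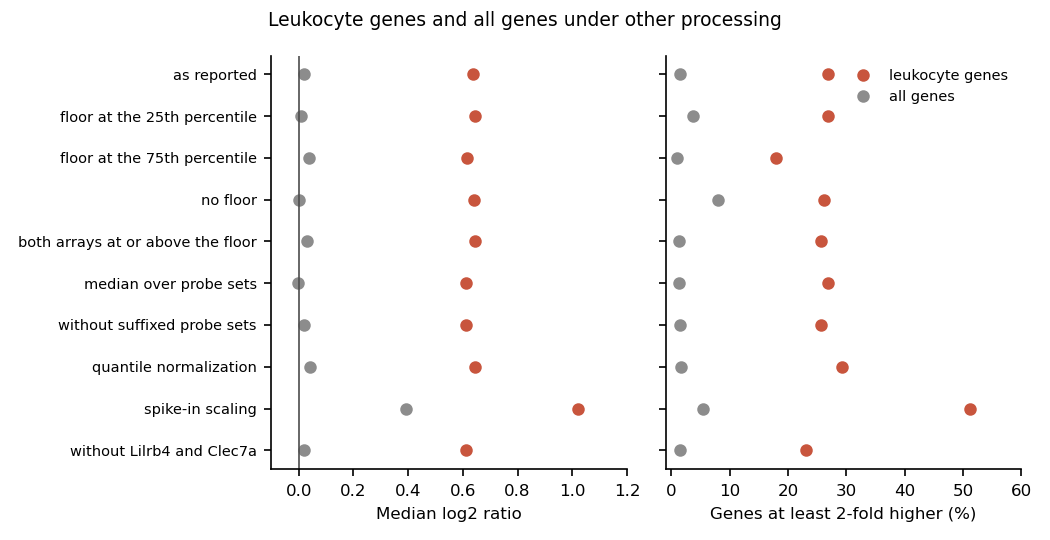
Median log2 ratio (left, x axis) and share of genes at least 2-fold higher in percent (right, x axis) under each processing alternative (y axis), for the leukocyte genes (red) and all measured genes (grey). The leukocyte median lies between 0.61 and 0.65 except under spike-in scaling, where it is 1.02 and that of all genes is 0.39.

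**Figure D3:**
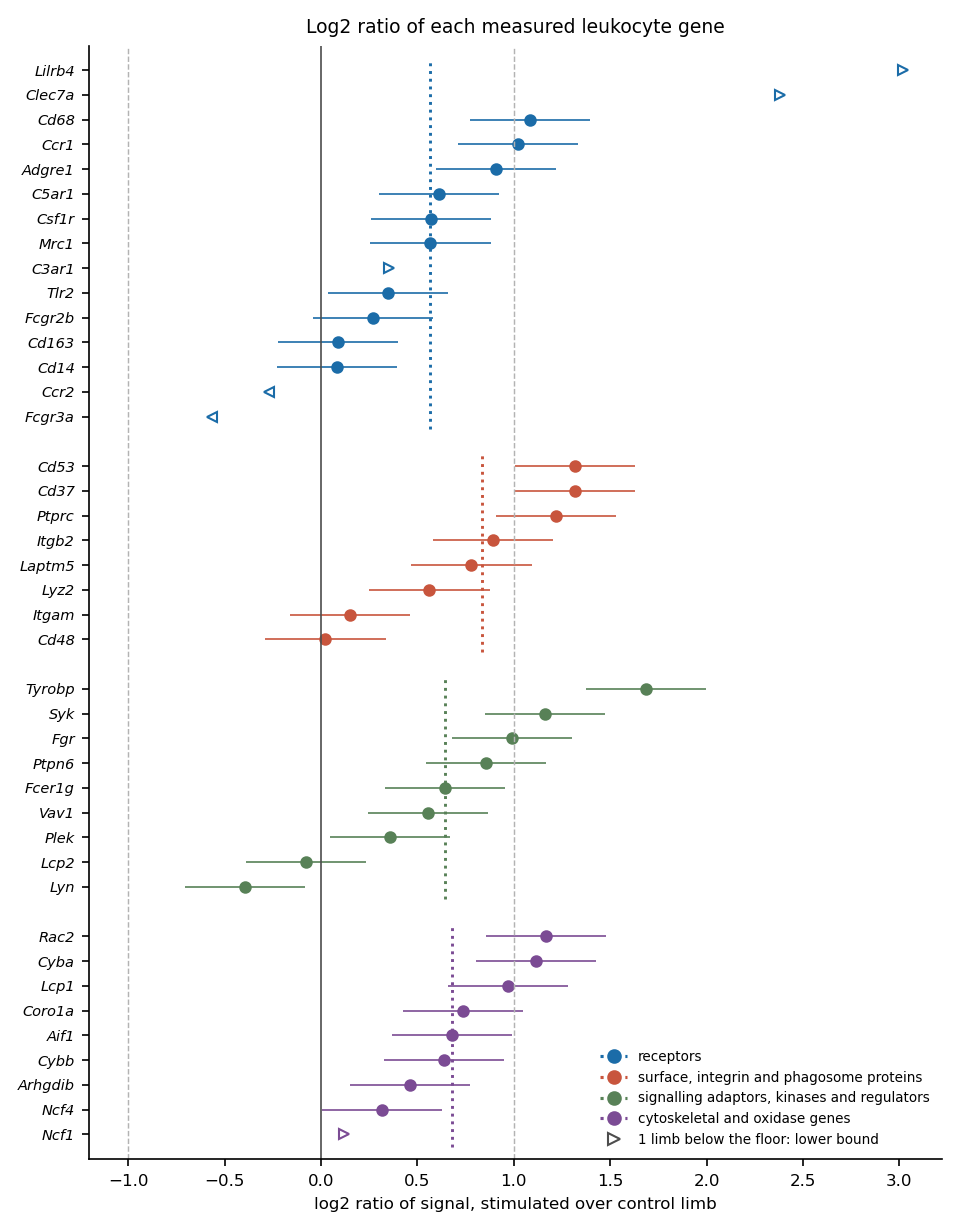
Log2 ratio of stimulated over control signal (x axis) for each of the 41 measured genes (y axis), coloured by role, with bars of 1 probe set SD (0.31), dotted lines at each role's median and dashed lines at 2-fold. Open triangles mark the 6 genes with 1 limb below the floor, whose value is a bound and has no bar. Lilrb4 and Clec7a stand at the right end, and Fcgr3a, Lyn, Ccr2 and Lcp2 lie left of 0.

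The promoters of several higher genes are shown because PU.1, the product of Spi1, is a transcription factor of myeloid cells whose binding site holds the letters GAGGAA, and Spi1 itself could not be read. The RefSeq table (assembly GRCr8) held the 250 bases before the start of 29 of the 45 genes, which include 9 of the 11 genes at least 2-fold higher. GAGGAA, searched on both strands, was present in 17 of the 29 (58.6%), against 23.1% of 19005 protein-coding promoters of the same length. It was present in 7 of the 9 promoters of higher genes (77.8%) and in 10 of the 20 others (50%). At least 2 matches occurred in 0 of the 9 and in 4 of the 20 (20%), against 3.08% of the protein-coding promoters. Neither difference was tested. Other members of the ETS family, to which PU.1 belongs, bind similar letters, so a match names no factor. Each sequence runs 5' to 3' on the gene's strand and ends at the base before the start, and capitals mark GAGGAA or its reverse complement. The first 4 hold a match, in Cd68, Cd53 and Syk within 21, 38 and 56 bases of the start and in Lilrb4 at 177 bases. In the higher genes not printed, matches lay at 71 (Cd37), 157 (Ptprc) and 239 bases (Ccr1), and Cyba held none. Clec7a, also past 2-fold at the floor used here, holds none. The printed promoters lie on the minus strand at chr1:78853253-78853502 (Lilrb4), chr2:197087897-197088146 (Cd53), chr10:54882442-54882691 (Cd68), chr17:12813274-12813523 (Syk) and chr4:164599828-164600077 (Clec7a).
Lilrb4: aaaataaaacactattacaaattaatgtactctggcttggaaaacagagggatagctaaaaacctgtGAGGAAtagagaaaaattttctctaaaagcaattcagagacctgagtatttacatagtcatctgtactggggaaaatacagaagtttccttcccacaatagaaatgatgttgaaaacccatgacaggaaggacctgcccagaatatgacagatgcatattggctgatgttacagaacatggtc
Cd53: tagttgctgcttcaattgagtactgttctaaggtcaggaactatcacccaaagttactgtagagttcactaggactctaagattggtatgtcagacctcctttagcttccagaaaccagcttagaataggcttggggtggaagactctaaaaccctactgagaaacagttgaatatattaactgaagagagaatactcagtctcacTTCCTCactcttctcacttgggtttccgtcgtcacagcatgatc
Cd68: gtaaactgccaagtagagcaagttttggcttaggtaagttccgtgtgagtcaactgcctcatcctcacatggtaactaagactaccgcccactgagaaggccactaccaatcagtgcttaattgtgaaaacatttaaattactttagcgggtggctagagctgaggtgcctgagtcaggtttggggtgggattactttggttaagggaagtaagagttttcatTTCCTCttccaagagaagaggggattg
Syk: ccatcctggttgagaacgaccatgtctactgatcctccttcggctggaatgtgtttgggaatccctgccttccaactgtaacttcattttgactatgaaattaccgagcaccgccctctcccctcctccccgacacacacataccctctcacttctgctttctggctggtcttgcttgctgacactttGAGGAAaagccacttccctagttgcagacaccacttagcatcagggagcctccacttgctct
Clec7a: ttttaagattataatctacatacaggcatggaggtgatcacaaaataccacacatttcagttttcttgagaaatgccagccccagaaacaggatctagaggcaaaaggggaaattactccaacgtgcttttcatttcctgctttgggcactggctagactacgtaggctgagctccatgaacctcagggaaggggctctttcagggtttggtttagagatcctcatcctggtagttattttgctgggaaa

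Receptors of the innate immune system ran from an 8.11-fold excess to a 1.48-fold deficit, both lower bounds set by the floor. Clec7a (dectin-1), a receptor for fungal beta-glucans that signals through Syk, had a stimulated signal of 103 and a control signal of 17.9, under the floor, so it was at least 5.20-fold higher. Cd68, a glycoprotein of macrophage lysosomes, stood at 329 against 155, which is 2.12-fold higher. The mannose receptor gene Mrc1, which binds sugars and collagen fragments, stood at 344 against 232, or 1.48-fold. Tlr2, a receptor for bacterial lipopeptides, stood at 67.8 against 53.3, a log2 ratio of 0.35 that is close to the probe set SD. Cd14, the co-receptor for bacterial lipopolysaccharide, had nearly equal signals of 286 and 270, and Cd163, the scavenger receptor for haemoglobin bound to haptoglobin, had 84.0 and 78.9. Their log2 ratios of 0.084 and 0.090 were smaller than the probe set SD. These 6 genes thus ranged from almost equal signals to at least 5-fold higher ones within the same pair of samples. Of the 6, 4 were more than 1 SD above 0, against 19.5% of all measured genes.

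Lilrb4, an inhibitory receptor of the leukocyte immunoglobulin-like family, had the largest ratio of the 41 genes at this floor. Its stimulated signal was 161 and its control signal 17.6, under the floor, at least 8.11-fold higher. The bound depends on the floor. With the floor at the 75th percentile the log2 ratio of Lilrb4 was at least 1.07 and that of Clec7a at least 0.43. Those of Tyrobp (1.69) and Cd53 (1.32), above that floor in both limbs, were larger than these 2 bounds. Without a floor, Lilrb4 and Clec7a had 3.19 and 2.52, against 1.69 for Tyrobp and 1.32 for Cd53. Fcgr2b, the inhibitory receptor for IgG, stood at 110 against 91.7, a log2 ratio of 0.27 that lies within 1 SD. Fcgr3a, an activating IgG receptor that needs Fcer1g at the cell surface, went the other way, with a stimulated signal of 18.7, under the floor, and a control signal of 29.2, at least 1.48-fold lower. Both its signals were dim, at or near the floor. Lilrb4, Fcgr2b and Fcgr3a belong to families of closely related genes, so each probe set may also read a relative, which was not tested.

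Receptors for growth factors, chemokines and complement peptides were mostly higher, by less than 2-fold with 1 exception. Ccr1, a receptor for inflammatory CC chemokines on monocytes and neutrophils, stood at 117 against 57.7, 2.03-fold higher. Adgre1, the adhesion receptor known as F4/80, stood at 78.3 against 41.8, 1.87-fold higher. C5ar1, the receptor for the complement peptide C5a, stood at 126 against 82.6, 1.53-fold higher. Csf1r, the receptor through which CSF1 and IL-34 keep macrophages alive, stood at 362 against 243, 1.49-fold higher. C3ar1, the C3a receptor, was dim, with 25.2 in the stimulated limb and a control signal of 15.4 below the floor, at least 1.28-fold higher. Ccr2, the receptor that draws monocytes out of the bone marrow, was the exception in direction. Its stimulated signal was 13.3, under the floor, and its control signal 23.9, at least 1.21-fold lower, and without a floor its log2 ratio was -0.85. The chemokine receptors Ccr1 and Ccr2 thus differed in direction, and Fcgr3a and Ccr2 kept a ratio below 0 under quantile normalization and spike-in scaling.

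**Figure D4:**
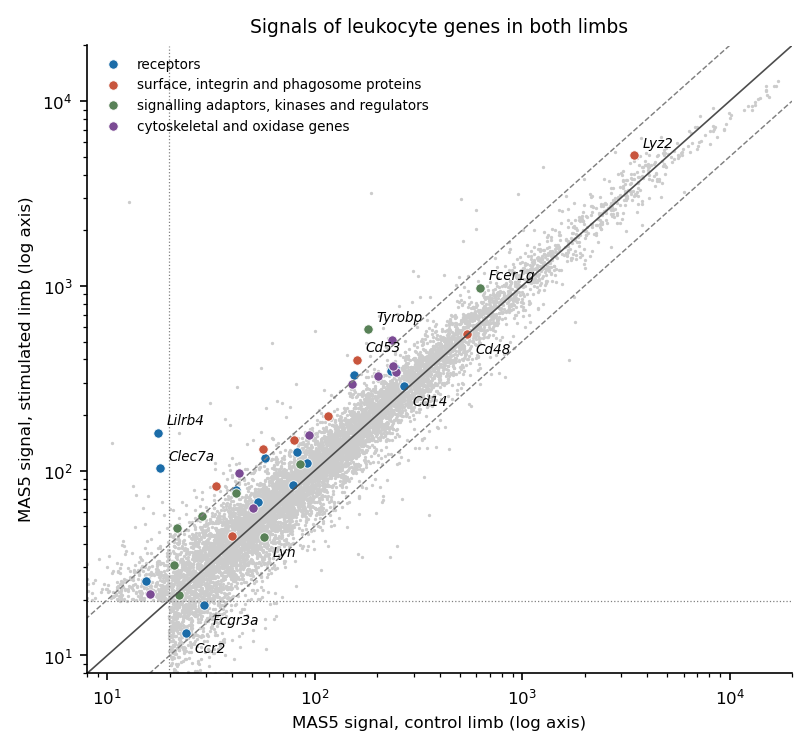
MAS5 signal in the control limb (x axis, log scale) and in the stimulated limb (y axis, log scale) for each measured gene, with the 41 leukocyte genes coloured by role and the others in grey. The solid line marks equal signals, dashed lines 2-fold and dotted lines the floor of 19.8, and the axes start at 8, so the dimmest signals are outside the frame. Lilrb4 and Clec7a lie left of the floor of the control limb and far above the dashed line.

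Surface proteins shared by most leukocytes included 3 of the genes past 2-fold. Ptprc (CD45), a tyrosine phosphatase on all nucleated blood cells, stood at 131 in the stimulated and 56.3 in the control limb, 2.33-fold higher. A further probe set of Ptprc lay below the floor in both limbs, at 15.6 in the stimulated and 18.0 in the control limb. The tetraspanins Cd53 and Cd37, which organise receptors in the leukocyte membrane, were both 2.49-fold higher, at 397 against 159 for Cd53 and 82.9 against 33.3 for Cd37. Cd48, a ligand of the SLAM family on haematopoietic cells, did not share this difference, at 548 against 540, a log2 ratio of 0.024 that turned to -0.028 under quantile normalization. Of the 4 measured pan-leukocyte surface genes, 3 were therefore at least 2-fold higher, against 1.43% of all genes, and the fourth had almost equal signals.

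The integrin chains Itgb2 (CD18) and Itgam (CD11b) form the complement receptor CR3, through which phagocytes adhere and take up opsonised particles. Itgb2, which also pairs with other alpha chains, stood at 147 against 79.4, 1.86-fold higher. Itgam stood at 44.6 against 40.1, a log2 ratio of 0.15, within 1 SD. The shared beta chain was higher while the alpha chain was nearly equal, and whether their ratios differ was not tested. Lyz2, the lysozyme of macrophages and neutrophils, was bright in both limbs, at 5096 in the stimulated and 3449 in the control limb, 1.48-fold higher. Laptm5, a lysosomal membrane protein of haematopoietic cells, stood at 198 against 115, 1.72-fold higher, with log2 ratios of 0.78 and 1.22 from its 2 probe sets.

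Signalling genes were led by the adaptor Tyrobp (DAP12), the partner of receptors such as Trem2. Tyrobp stood at 583 in the stimulated and 181 in the control limb, 3.22-fold higher, the largest ratio among the 35 of the 41 genes above the floor in both limbs. Fcer1g, the ITAM adaptor of Fc receptors, stood at 976 against 624, 1.56-fold higher. Both adaptors were more than 2 probe set SDs above 0, as were 556 of all 9956 measured genes. Syk, the kinase that binds phosphorylated ITAMs, stood at 48.7 against 21.8, 2.24-fold higher, with a control signal close to the floor and a probe set designed against several transcripts of a gene. Fgr, a Src-family kinase of myeloid cells, stood at 56.8 against 28.6, 1.99-fold higher. Ptpn6 (SHP-1), the phosphatase that inhibitory receptors recruit, stood at 75.3 against 41.7, 1.81-fold higher.

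The other signalling genes included both higher and lower ones. Vav1, a signalling protein of blood cells, stood at 30.7 against 20.9, 1.47-fold higher. Plek (pleckstrin), a substrate of protein kinase C in platelets and leukocytes, stood at 109 against 85.3, 1.28-fold higher. Lcp2 (SLP-76), an adaptor that links Syk-family kinases to Vav proteins, was close to the floor, at 21.1 against 22.3, a log2 ratio of -0.077. The second probe set of Lcp2, at 23.3 against a control signal of 10.5 below the floor, had a log2 ratio of at least 0.24. Under quantile normalization and spike-in scaling the gene stood at no less than 0.30 and 0.44. Those values were read from that second probe set, which was then the brighter. Lyn, a Src-family kinase with both activating and inhibitory roles, was lower, at 43.5 against 57.3, 1.32-fold. Its second probe set was lower as well, with a log2 ratio of -0.30 and a stimulated signal below the floor, and under spike-in scaling the log2 ratio of Lyn was -0.012. The 2 Src-family kinases in the set thus lay on opposite sides of 0. A second measured probe set existed for 4 of the 41 genes, and it had the same sign as the first for Cybb, Laptm5 and Lyn and the opposite sign for Lcp2.

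The 5 genes of cytoskeletal regulation were all more than 1 probe set SD above 0, against 19.5% of all measured genes. Rac2, the Rac GTPase of blood cells, which serves both actin and the oxidase, stood at 96.7 against 43.1, 2.24-fold higher. Lcp1 (L-plastin), an actin-bundling protein, stood at 295 against 151, 1.96-fold higher. Coro1a (coronin 1A), an actin regulator at the phagosome, stood at 156 against 93.7, 1.66-fold higher. These 3 proteins act on the leukocyte cortex, where actin is remodelled during crawling and uptake. Aif1 (IBA1), an actin-binding protein widely used as a macrophage marker, stood at 325 against 203, 1.60-fold higher. That probe set is of a type that may read several transcripts, and without such probe sets Aif1 was not measured. A further probe set of Aif1 lay below the floor in both limbs. Arhgdib stood at 341 against 247, 1.38-fold higher.

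The NADPH oxidase consists of a membrane pair, Cybb (gp91phox) and Cyba (p22phox), and cytosolic subunits that join it on activation. Cyba stood at 510 in the stimulated and 236 in the control limb, 2.16-fold higher, and a further probe set of Cyba lay below the floor in both limbs. Cybb stood at 370 against 238, 1.56-fold higher, with a second, dimmer probe set at a log2 ratio of 0.21. Of the cytosolic subunits, Ncf4 (p40phox) stood at 63.1 against 50.7, 1.25-fold higher. Ncf1 (p47phox) was near the floor at 21.5 against 16.1, at least 1.09-fold higher. Without a floor the log2 ratio of Ncf1 was 0.42, and that of Cybb was 0.42 when its 2 probe sets were combined by their median, beside 0.32 for Ncf4. Whether membrane and cytosolic subunits differ in their ratios was not tested.

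Genes that work beside these were read from 9 lists of 175 genes, none of them among the 45, of which 106 were measured. Of the 106, 9 were higher and 3 lower by that measure of 2-fold, with a median log2 ratio of 0.24, while 1.43% of all measured genes passed in each direction. Under spike-in scaling, 25 of 109 measured genes were higher and 1 lower, against 5.36% and 0.441% of all genes. The list closest to the receptors and adaptors, ITAM and Fc receptor signalling, had a median of 0.52 over 19 measured genes, with 4 at least 2-fold higher and 0 lower. Trem2, the lipid-sensing receptor that pairs with Tyrobp, stood at 72.5 against 6.98, below the floor, at least 3.66-fold higher. Cd33, an inhibitory receptor for sialic acids, stood at 72.5 against 26.9, 2.69-fold higher. The other two, chosen for mention after their values were seen, were the Syk substrate Blnk, 2.31-fold, and the inhibitory receptor Pilra, 2.23-fold higher.

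Other pan-leukocyte genes had a median of 0.41 over 13 measured, with 2 at least 2-fold higher, the membrane proteins Evi2b (2.99-fold) and Evi2a (2.91-fold), and 0 lower. Leukocyte cytoskeleton genes had a median of 0.24 over 21 measured, also with 2 at least 2-fold higher and 0 lower. These were Myo1f, a myosin of blood cells, at 102 against 33.1 (3.09-fold), and Gmfg, which prunes branched actin, at 489 against 177 (2.76-fold). Integrin and adhesion genes had a median of 0.26 over 7 measured, with 0 past 2-fold in either direction. The hyaluronan receptor Cd44 was 1.91-fold higher and the integrin activator Fermt3 1.54-fold. Myeloid transcription factors had a median of 0.23 over 10 measured and 0 past 2-fold in either direction, with Irf8 at 1.67-fold and Irf5 at 1.53-fold higher and Cebpb at a log2 ratio of -0.15.

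Lists of cytokine, Toll-like and chemoattractant receptors had medians below 0, but the sign of each turned under some of the alternatives. Apart from spike-in scaling, the medians ran from -0.072 to 0.034, from -0.032 to 0.16 and from -0.39 to 0.049, and under that scaling they were 0.35, 0.35 and 0.044, where that of all genes was 0.39. Colony-stimulating factors and cytokine receptors had a median of -0.022 over 15 measured genes, with 0 at least 2-fold higher and 1 lower. That gene was Csf2rb, the shared beta chain of the GM-CSF receptor, at 21.7 against 51.4, 2.37-fold lower, while the alpha chain Csf2ra was 1.76-fold higher. Csf1, the ligand of Csf1r, had a log2 ratio of -0.20. Toll-like receptor and inflammasome genes had a median of -0.032 over 12 measured, with 1 past 2-fold in each direction. Ly96, the lipopolysaccharide-binding partner of Tlr4, was 2.13-fold higher, while the serum carrier of lipopolysaccharide, Lbp, was at least 2.56-fold lower and Tlr4 had a log2 ratio of -0.19. Other chemoattractant receptors had a median of -0.17 over 6 measured, with 0 at least 2-fold higher and 1 lower, Ackr1, a scavenging chemokine receptor of venules and red cells, at 32.5 against 80.2, or 2.47-fold. Ackr3, another scavenging receptor, was 1.56-fold lower, and Cx3cr1, the fractalkine receptor, lay below the floor in both limbs. The other oxidase genes had a median of -0.16 over 3 measured, with 0 past 2-fold in either direction, Rap1a at 0.30 and the chaperone gene Cybc1 at -0.22, and this median was 0.082 when probe sets were combined by their median and 0.22 under spike-in scaling.

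**Figure D5:**
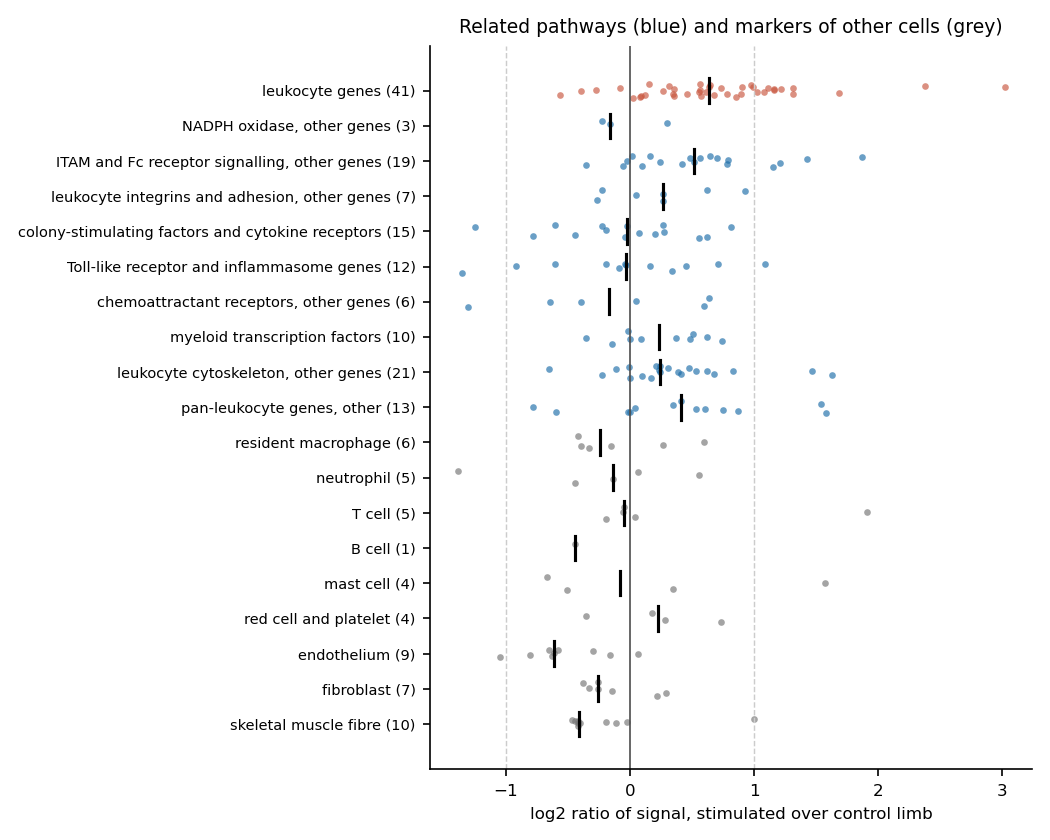
Log2 ratio of stimulated over control signal (x axis) for each measured gene of the 41 leukocyte genes (red), of 9 related pathway lists (blue) and of the marker lists of other cells with a measured gene (grey), with the number measured in brackets, black bars at each median and dashed lines at 2-fold. The median of the leukocyte genes, 0.64, is followed by that of ITAM and Fc receptor signalling at 0.52, and the endothelial list lies lowest at -0.61.

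Markers of other blood cells were read beside these results, since many of the 41 genes are also expressed by neutrophils, lymphocytes or mast cells. Of 16 neutrophil markers, 5 were measured, with a median log2 ratio of -0.14. Summed over the genes of that list, signals came to 265 in the stimulated and 292 in the control limb, led by Lcn2 (log2 ratio 0.065) and S100a9 (-0.14). In that list Fcnb, a ficolin, stood at 6.82 against 51.8, at least 2.62-fold lower, and Csf3r, the G-CSF receptor, at 29.2 against 14.1, at least 1.47-fold higher, both named after their values were seen. The alarmin S100a8 and the granule genes Camp, Mmp8 and Mmp9 lay below the floor in both limbs. Of 13 T cell markers, 5 were measured with a median of -0.045 and summed signals of 210 and 173, and Cd3d, Cd3e and Cd2 lay below the floor in both limbs. Cd8a stood apart in that list at 74.3 against 13.7, at least 3.76-fold higher, while Lck had a log2 ratio of 0.044. Of 8 B cell markers 1 was measured, Cd22, with a log2 ratio of -0.44, and the summed signals were 62.4 and 83.6. All 7 NK cell, 4 eosinophil and 4 dendritic cell markers with a probe set lay below the floor in both limbs, with sums in the stimulated and control limb of 23.0 and 37.0, 23.3 and 29.5, and 36.6 and 19.3. Of 8 mast cell markers 4 were measured, with a median of -0.077 and summed signals of 329 and 319, led by Cma1 (0.35) and Cpa3 (-0.67). The tryptase gene Tpsab1 of that list, named after its values were seen, stood at 68.1 against 22.9, 2.97-fold higher. For red cells and platelets, 4 of 9 markers were measured and their median was 0.23, with summed signals of 1694 and 1290, led by Hbb (0.28) and Pf4 (0.73). The part of these cells in the results above was not tested.

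Marker lists for cells of the tissue itself had medians below that of all genes. The 9 measured of 10 endothelial markers, led by Emcn (-0.65) and Esam (-0.61), had a median log2 ratio of -0.61, with 1 above 0 and summed signals of 811 in the stimulated and 1192 in the control limb. Fibroblast markers had a median of -0.26 over 7 genes, with 2 above 0 and sums of 17758 and 21167, led by Col3a1 (-0.33) and Dcn (-0.26). Muscle fibre markers had a median of -0.41 over 10 of 11 genes, with 1 above 0 and sums of 80402 and 102706, led by Acta1 (-0.47) and Ckm (-0.44). The gene above 0, named after its value was seen, was the fast myosin heavy chain gene Myh2, at 2010 against 1008, just under 2-fold higher. Their part in the leukocyte ratios was not tested.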

How the data were processed

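Biotin-labelled RNA of 1 pricked and 1 unpricked muscle sample was read on Affymetrix arrays, per the labels' protocols. The deposited values are linear signal intensities that the authors made with MAS5, per the submitters' processing notes. Its version and scaling target were not given in those notes. After trimming 2% at each end, both columns had a mean of 76.5. Precision is limited by the number of arrays, 1 per group.

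Of 31042 non-control probe sets, 20826 had 1 gene symbol in the platform annotation, 436 had several and were left out, and 9780 had none and are unnamed here. Signals under the median of all non-control signals were raised to it, and each gene was read from the brightest of its probe sets that reached this floor on at least 1 array. Python 3.11.15 and pandas 2.3.3 were used, and the code was tested on simulated data. No p-value is given. The members, lists and rules were chosen with earlier results of these data known, and Lilrb4, Clec7a and Cd8a were among the most different genes of those results. Named were all members, the 2 genes with the largest absolute ratio in each pathway list, a few partners, and the 2 brightest genes of each marker list. Marker genes below the floor, Blnk and Pilra were named after their values were seen. A planned search for protein motifs was not run. One gene of a related pathway list is not reported here.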

Additional observations from a re-analysis of the deposited data

How the results depend on the processing

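The processing was varied in 9 planned ways. The count and medians were also taken without Lilrb4 and Clec7a, an alternative chosen after seeing the data. It left 9 of 39 genes at least 2-fold higher, against 1.43% of all genes. That count was fixed in advance, since both genes were among the 11. The median was then 0.61 and the receptor median 0.35. Apart from scaling to the spike-ins, the median log2 ratio of the 41 genes lay between 0.61 and 0.65 under every alternative run, and the 4 role medians moved by less than 1 probe set SD. The count at least 2-fold higher was 5 when the floor was set to the 75th percentile, 21 with spike-in scaling, 22 at a 1.5-fold threshold, and otherwise 9 to 12. With the floor at the 75th percentile, a signal of 76.5, Syk lay below it in both limbs and was not measured. Clec7a, Cd37, Ptprc, Rac2 and Ccr1 were measured but no longer past 2-fold. Their control signals were raised to that floor, so their smaller ratios are lower bounds. All 11 genes remained past 2-fold under quantile normalization. They did so under spike-in scaling as well, but that scaling raises all stimulated signals, so none of the 11 could have dropped out. Without a floor, 1 gene was at least 2-fold lower, Cd52, whose signals were dim in both limbs. Spike-in scaling moved the median to 1.02, and the role medians to 0.95 (receptors), 1.22 (surface, integrin and phagosome proteins), 1.03 (signalling) and 1.06 (cytoskeletal and oxidase genes), alongside the shift of all genes. Relative to the median gene, the median of the 41 was 0.63 under that scaling and 0.62 as reported. The scaling is a constant factor on 1 array, so these values must be alike apart from effects of the floor.

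For the pathway lists, the counts at least 2-fold higher and lower were 14 and 5 of 130 for a floor at the 25th percentile, where 3.71% and 4.67% of all genes passed, and 1 and 0 of 57 at the 75th, where 0.894% and 0.842% did. Without a floor they were 16 and 7 of 136, against 7.94% and 9% of all genes. They were 25 and 1 of 109 with spike-in scaling, against 5.36% and 0.441%, and 28 and 11 of 106 at 1.5-fold, against 6.59% and 6.94%. Their median was 0.59 with spike-in scaling. A higher floor leaves fewer genes measured (28 of the 41 leukocyte genes) and shrinks ratios with 1 limb below it. A lower floor adds dim genes. For other moves the cause was not tested. No paired analysis was possible because each group has 1 array and the labels give no replicate numbers. No replicate could be left out for the same reason.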

Other observations

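Markers of macrophages that reside in tissue, a list that shares no gene with the 41, did not have the positive median of the leukocyte genes. Of 11 genes, 6 were measured, with a median log2 ratio of -0.24 and summed signals of 2321 in the stimulated and 2622 in the control limb. The hyaluronan receptor Lyve1 stood at 778 against 865 and lay within 1 probe set SD. The vitamin K-dependent ligand Gas6 (493 against 621), the lectin Clec10a (268 against 359) and the coagulation factor subunit F13a1 (294 against 387) were lower by more than 1 SD. The scavenger receptor Stab1 was higher, at 84.4 against 55.9, and the folate receptor Folr2 stood at 385 against 321. Cd163 and Mrc1, which resident macrophages also express, had log2 ratios of 0.090 and 0.57. Clec10a, F13a1, Stab1 and Folr2 were chosen for mention after their values were seen. Endothelial and fibroblast markers also had medians below 0, at -0.61 and -0.26, and the part of other muscle cells in these signals was not tested. With 1 array per group the contrast between the resident macrophage list and the leukocyte genes was not tested.

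Some of the genes lie side by side in the rat genome (RefSeq order, protein-coding genes). Fcgr2b and Fcgr3a are direct neighbours, and their log2 ratios were 0.27 and -0.56. Vav1 and Adgre1, also direct neighbours, had 0.55 and 0.91. Ccr1 and Ccr2, with 2 genes between them, had 1.02 and -0.27. Of these 3 pairs, 1 thus shared its direction. Ccr2 and Fcgr3a were read from dim signals, below the floor in the stimulated limb.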
